A study of Mus musculus with 2 samples.

Results

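Nkx2-5, Gata4, Gata6, Tbx5, Tbx20, Mef2a, Mef2c, Mef2d, Hand2 and Srf are 10 DNA-binding transcription factors of heart muscle. They were taken from the deposited long-read tables by their annotated gene names, 10 of the 15031 annotated mouse genes that had reads in either library. The tissue was heart from aged female hybrid mice (strain B6CASTF1/J, 18 to 20 months old), with no treatment named in the labels. There was 1 group with 2 libraries, replicate 1 and replicate 2, each made from 2 µg of RNA. The labels give each library its own biological sample but the same donor entry, so that an SD over the 2 libraries (n = 2) and every test describe how far these samples of a single group lie apart, possibly for technical reasons, and no contrast between conditions exists. Heart tissue holds muscle of atria and ventricles, fibroblasts, vessel and blood cells, and in such bulk RNA fewer cells of a type and less RNA per cell cannot be told apart.

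These factors form the regulatory core that directs heart formation and keeps cardiomyocyte genes active in the adult. NKX2-5 is a homeodomain protein, GATA4 and GATA6 are zinc finger proteins, TBX5 and TBX20 are T-box proteins, HAND2 is a basic helix-loop-helix protein, and the MEF2 proteins and SRF bind DNA through a MADS box. They bind enhancers of sarcomere, ion channel and natriuretic peptide genes together, often by direct contact with each other, and the MEF2 and SRF genes make several proteins from alternative exons. Long reads can run through many exons of an RNA, and the exons on a read then come from the same molecule.

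Replicate 1 held 630211 and replicate 2 held 664319 reads on mouse models, so that 1 read equalled 1.61 and 1.48 CPM, reads per 1000000 reads after TMM scaling. Each read counts as 1 molecule and levels were not divided by length. Under-counting of long transcripts was not tested. Cardiomyocyte markers were detected in 7 of 7 cases and summed to 24440.3 CPM in replicate 1 and 21939 CPM in replicate 2. The libraries differed in other tissue markers. The 6 atrial muscle markers summed to 1817 CPM in replicate 1, against 4322 CPM in replicate 2, and Nppa, Myl4, Myl7 and Sln were higher in replicate 2. The ventricular markers summed to 13715 and 12271 CPM, with Myl2, Myl3 and Fhl2 higher in replicate 1 and no reads of Hey2 in either library. The 6 lung and airway markers were all without reads in replicate 1 and summed to 620 CPM in replicate 2 (Bpifa1, Scgb1a1, Scgb3a2 and Sftpa1 called, Sftpc and Sftpb without reads in both libraries). The 6 fat cell markers summed to 99.8 CPM in replicate 1 and 1060 CPM in replicate 2, and Cfd, Adipoq, Retn, Cidec and Car3 were called. Fibroblast markers summed to 2520 and 2951 CPM (Col3a1 higher in replicate 2). Gsn held most of both sums, with 2118 CPM in replicate 1 and 2393 CPM in replicate 2, and was not called. Col1a1 (7 and 7 reads) and Pdgfra (5 and 5 reads) were even, and the others had more reads in replicate 2. Macrophage markers summed to 319 and 422 CPM (Lyz2 higher in replicate 2, with 64 and 123 reads). Pf4 (32 and 22 reads) and Cd68 (7 and 6 reads) went the other way. The median log2 ratio (replicate 1 over replicate 2) was -0.31 for tested fibroblast markers and -0.25 for tested macrophage markers. Endothelial markers summed to 875 and 1180 CPM. Fabp4 held most of both sums, with 574 CPM in replicate 1 and 919 CPM in replicate 2, and alone was called. Over the 9 endothelial markers the median log2 ratio (replicate 1 over replicate 2) was 0.12, so the sums follow Fabp4 and not the list. No marker was called among mural cells (323 and 316 CPM, 7 of 8 tested) or mesothelium and epicardium (27.4 and 40.1 CPM, 2 of 6 tested). Lymphocyte markers summed to 4.83 and 34.1 CPM (Cd3e without reads), and the 1 of 7 that was tested was not called. Markers of skeletal muscle (8.05 and 7.42 CPM, with Myh4, Myh2 and Tnnt3 without reads) all had too few reads to be tested. The same held for Schwann cells and neurons (14.5 and 17.8 CPM).

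All 10 factors had reads in both libraries. They took 281 reads in 74 transcript models in replicate 1 and 247 reads in 66 models in replicate 2, and summed to 452 and 367 CPM, a mean of 409 ± 60.5 CPM. The median gene with reads stood at 7.61 CPM, and 9 of the 10 factors lay above it. Tbx20 lay below it.

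**Figure D1:**
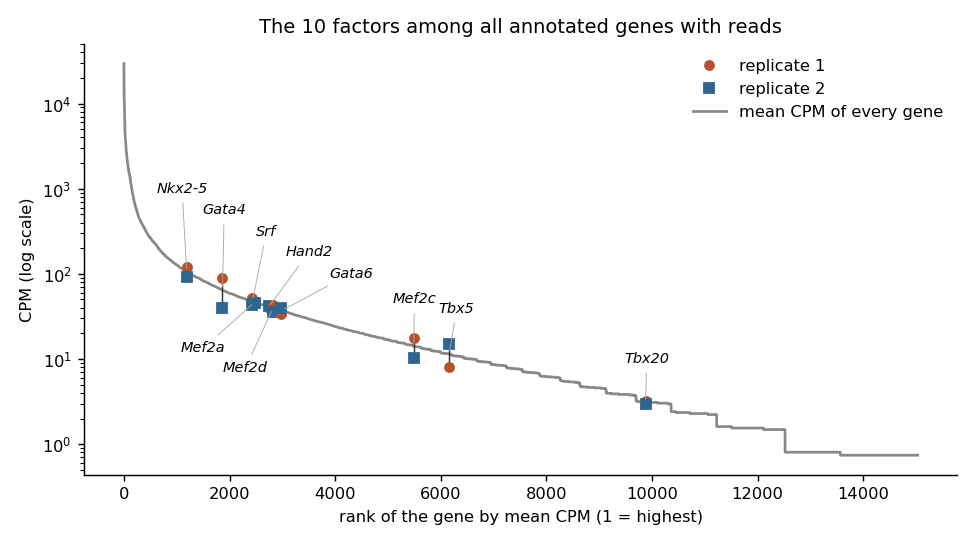
CPM on a log scale against the rank of each gene by mean CPM over both libraries. The grey line is the mean CPM of all 15031 annotated genes with reads, circles are replicate 1 and squares replicate 2. Nkx2-5 ranked 1190th and Tbx20 9877th, and Gata4 had the widest gap between the libraries in reads.

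Nkx2-5, the homeodomain factor, was the most abundant of the 10. It had 74 reads (119 CPM) in replicate 1 and 62 reads (92.0 CPM) in replicate 2, a mean of 106 ± 19.1 CPM and rank 1190. Gata4, the zinc finger partner of NKX2-5 and TBX5, came next with 55 reads (88.5 CPM) and 27 reads (40.1 CPM), at rank 1867. Its replicate 1 value was far above its replicate 2 value, so that its second place by mean CPM held in replicate 1 alone. In replicate 2 it had as many reads as Gata6 and fewer than Mef2a, Srf and Hand2.

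A group of 5 factors followed between 36.9 and 47.3 CPM on average. Srf, the MADS box factor of immediate-early and cytoskeletal genes, had 32 reads (51.5 CPM) in replicate 1 and 29 reads (43.0 CPM) in replicate 2. Mef2a had 29 reads (46.7 CPM) and 31 reads (46.0 CPM). Hand2, first known for its role in the embryonic right ventricle, had 25 reads (40.2 CPM) and 28 reads (41.6 CPM). These values were close in both libraries. Mef2d had 27 reads (43.4 CPM) and 24 reads (35.6 CPM). Gata6, the second GATA factor of heart muscle, had 21 reads (33.8 CPM) and 27 reads (40.1 CPM). By mean CPM these 5 ran between 47.3 ± 5.97 CPM for Srf and 36.9 ± 4.44 CPM for Gata6. Neighbours in this order overlapped in their library values except Mef2a and Hand2, which lay 4 reads apart in replicate 1 and 3 reads apart in replicate 2. This grouping depends on the reads counted. Without reads that overlap a gene but do not follow its splicing (the Genomic class) the mean level of Mef2d was 16.9 CPM, against 39.5 CPM with all reads. Scaled to reads of known transcripts alone, the mean levels were 3.48 CPM for Mef2d, 17.6 CPM for Mef2a and 21.4 CPM for Srf, and that of Hand2 (44.5 CPM) lay above that of Gata4 (41.4 CPM).

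The remaining 3 factors were low. Mef2c had 11 reads (17.7 CPM) in replicate 1 and 7 reads (10.4 CPM) in replicate 2. Tbx5, the factor mutated in Holt-Oram syndrome in humans, had 5 reads (8.05 CPM) and 10 reads (14.8 CPM). The order of Mef2c and Tbx5 changed between the libraries. Tbx20 had 2 reads (3.22 CPM) and 2 reads (2.97 CPM). This is below the 3 reads that even a count of 0 would allow, which correspond to 4.83 CPM for replicate 1 and 4.45 CPM for replicate 2.

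The libraries were compared for each gene with at least 10 reads over both, with an exact binomial test (two-sided, on the TMM-scaled sizes) and Benjamini-Hochberg adjustment over all 7545 genes tested. In all, 2.07% of the tested genes were called at an adjusted p of 0.05, with 0.861% higher in replicate 1 and 1.21% higher in replicate 2. Of the 9 factors tested, 1 was called higher in replicate 1 (Gata4) and 0 were called higher in replicate 2. On the log2 scale (replicate 1 over replicate 2) the median ratio was 0.26 among the 9 factors and -0.00053 among all tested genes. Among all 10 factors, 7 had the higher CPM in replicate 1 and 3 in replicate 2. The 7 include Tbx20 (2 and 2 reads) and Mef2a (29 and 31 reads), which were higher there only after scaling. How many of all genes had the higher CPM in replicate 1 was not counted. With so few reads the intervals were wide. That of Nkx2-5 covered 0.911- to 1.84-fold, that of Hand2 0.541- to 1.72-fold and that of Tbx5 0.145- to 1.74-fold (replicate 1 over replicate 2, exact 95% intervals, counting error only), so a difference of that size was not detectable at this depth.

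Gata4 was 2.21-fold higher in replicate 1 than in replicate 2 [1.37 to 3.64], with an adjusted p of 0.0312 in the exact binomial test. Part of this gap lay in single-exon models near the 3′ end, which differed in kind between the libraries. Replicate 1 had 12 reads on a model that is exactly the last exon, of 1630 bases, and is not classed as Genomic, and replicate 2 had 0. Replicate 2 had 5 reads on a Genomic model of 3 bases at the annotated 3′ end, and replicate 1 had 0. The call was lost with known transcripts only, which left 22 and 13 reads, a 1.81-fold ratio and an adjusted p of 0.671 in the exact test. It was lost without a minimum on reads, where the ratio is the same and more genes are tested (adjusted p of 0.0622, exact test), and also with models of 2 or more exons, an alternative chosen after seeing the data, which left 41 and 21 reads, a 2.11-fold ratio [1.22 to 3.75] and an adjusted p of 0.161 in the exact test. Without the Genomic class, which left 54 and 21 reads, the log2 ratio was 1.45 with an adjusted p of 0.00206 in the exact test. This setting dropped the 5 reads on the 3-base model in replicate 2 but kept the 12 reads on the last exon in replicate 1. It thus took single-exon reads near the 3′ end mainly from replicate 2. With a minimum of 50 reads the adjusted p was 0.0147 in the exact test. Over all alternatives the adjusted p of the exact test ran between 0.00206 and 0.671, and the ratio was above 1 in each. Atrial, lung and airway and fat cell markers were higher in replicate 2, as given above. Their part in the Gata4 difference was not tested.

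**Figure D2:**
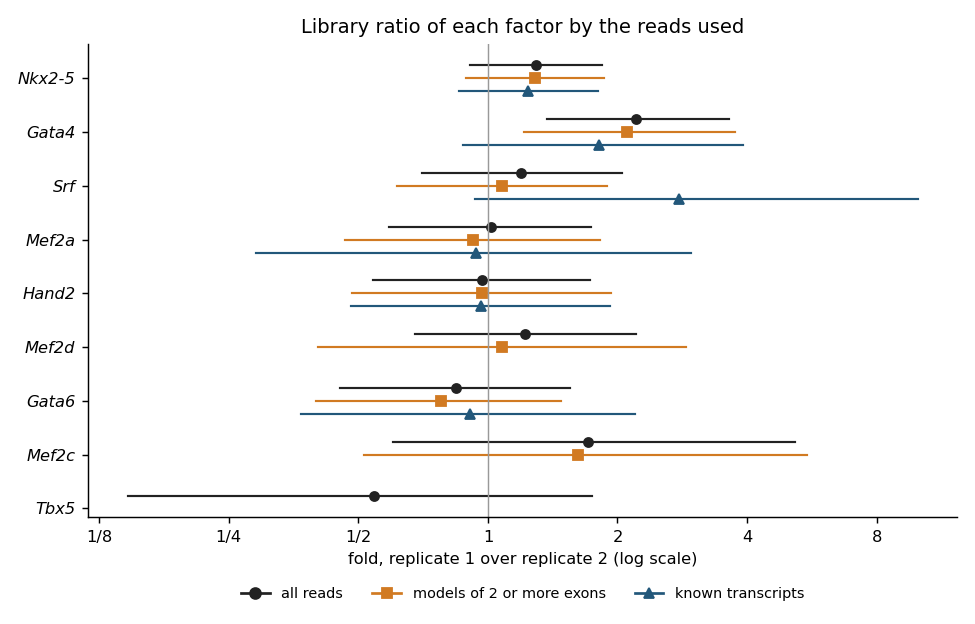
Ratio of replicate 1 over replicate 2 for each factor on a log scale, with exact 95% intervals that cover counting error only. Circles use all reads, squares use models of 2 or more exons and triangles use known transcripts. Sets of fewer than 10 reads over both libraries are not drawn, which leaves out Tbx20. Gata4 has 2.21-fold with all reads and 1.81-fold with known transcripts, where the interval includes 1.

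The deposited tables give each model a class. Known models follow all splice junctions of an annotated transcript, ISM models an unbroken part of a longer chain of junctions, NIC models join annotated splice sites in a combination not in the annotation, and NNC models have at least 1 splice site not in it. Genomic models overlap the gene without following its splicing. Of the reads of the 10 factors, 49.8% were Known in replicate 1 and 48.2% in replicate 2, a mean of 49.0% ± 1.16, whereas 69.3% ± 0.937 of the reads of all annotated genes were Known. NIC models took 13.9% ± 0.995 of the factors' reads and 2.75% ± 0.0124 over all annotated genes, NNC models took 5.50% ± 0.233 and 2.26% ± 0.0547, and Genomic models took 20.3% ± 1.05 and 8.83% ± 0.759. ISM models took 11.3% ± 1.11 of the factors' reads and 16.9% ± 1.74 over all annotated genes. The gap in each of the 5 classes exceeded the spread between the libraries. The factors and all genes share the libraries, and no test was run.

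**Figure D3:**
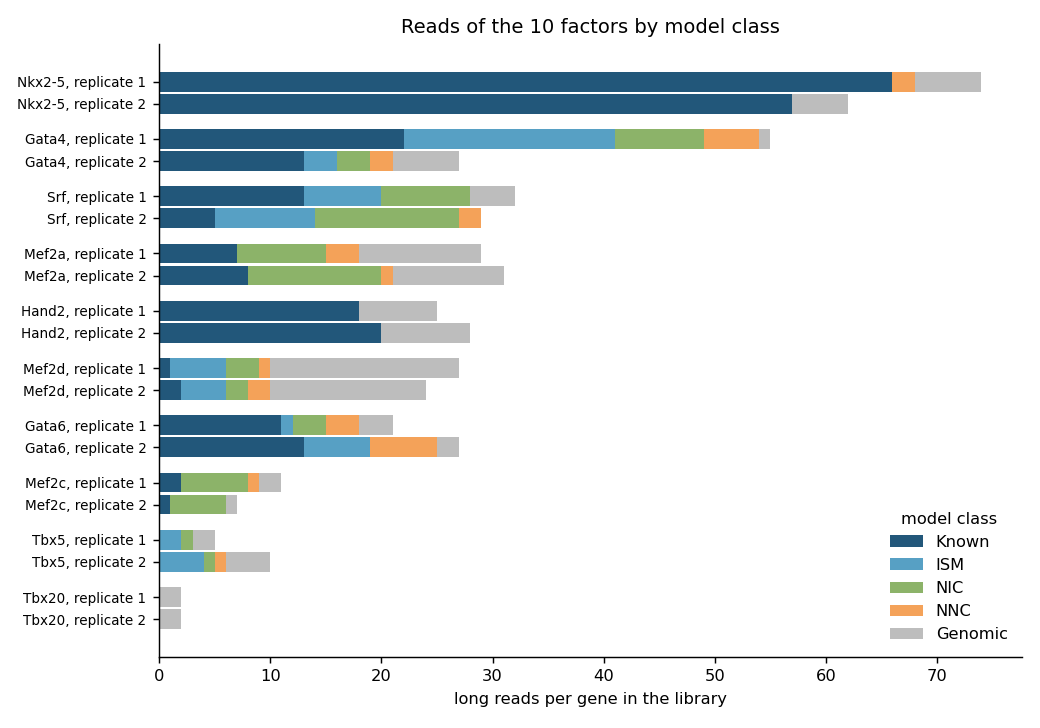
Reads of each factor in each library, with replicate 1 above replicate 2, stacked by model class. Nkx2-5 and Hand2 are mainly Known, Mef2d is mainly Genomic, and Tbx20 has Genomic reads alone.

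The Known share came mainly from a few genes. For Nkx2-5, 66 of 74 reads were Known in replicate 1 and 57 of 62 in replicate 2, and for Hand2 18 of 25 and 20 of 28. At the other end, 1 of 27 and 2 of 24 Mef2d reads were Known, and Tbx5 and Tbx20 had no Known read in either library. Weighted alike, the 10 genes averaged 33.3% Known reads. The share over all annotated genes given above is weighted by reads, and no mean with equal weights was computed for them. Reads in models of 2 or more exons made up 76.2% of the factors' reads in replicate 1 and 77.7% in replicate 2, against 80.2% and 79.5% over all annotated genes. Of these spliced reads of the factors, 87.4% in replicate 1 and 89.1% in replicate 2 belonged to models that reach across the coding region from start to stop codon. Model ends follow annotated positions in many cases, so a model's length is not the length of its reads.

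Genomic reads were unevenly spread. They made up 63.0% of Mef2d reads in replicate 1 and 58.3% in replicate 2, 37.9% and 32.3% of Mef2a reads, and 28.0% and 28.6% of Hand2 reads. In Mef2d a single-exon model of 2157 bases at the 3′ end of the gene alone had 9 and 8 reads. In Mef2a a single-exon model of 756 bases had 9 reads in replicate 1, and another of 1113 bases from the same 3′ end had 10 reads in replicate 2. The share of Genomic reads was tested for each gene by Fisher's exact test where both libraries had at least 10 reads, and 3.76% of all tested genes were called (1.72% with a higher share in replicate 1 and 2.04% in replicate 2). Of the 7 factors tested, 0 were called. The lowest p was that of Gata4, with 1 of 55 reads Genomic in replicate 1 and 6 of 27 in replicate 2 (two-sided Fisher's exact test, unadjusted p of 0.00452, adjusted p of 0.107), and no other factor had an unadjusted p under 0.05. The 12 single-exon reads on the last exon of Gata4 in replicate 1 are classed as ISM and do not count as Genomic. Models of 2 or more exons held 41 of 55 Gata4 reads in replicate 1 (74.5%) and 21 of 27 in replicate 2 (77.8%).

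Nkx2-5 (chromosome 17, 26838664 to 26845009, minus strand, mm10) was the simplest of the larger members. Its annotated 2-exon transcript (ENSMUST00000015723) had 65 reads in replicate 1 and 56 in replicate 2. The other annotated transcript, with 3 exons and a start farther upstream, had 1 and 1. A Genomic model of 363 bases at the 3′ end had 6 and 5. Replicate 1 alone had 2 models with new splice sites at 1 read each. Hand2 (chromosome 8, 57320983 to 57324633, plus strand) has a single annotated transcript, and its spliced reads all followed it, with 18 reads in replicate 1 and 20 in replicate 2. The rest were single-exon Genomic models, with 5 and 4 reads on the last 401 bases, 0 and 3 on the 472 bases before them and 2 and 1 on the first 246 bases.

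The share of the leading model among non-Genomic reads was tested in the same way, for genes with 10 or more such reads in each library by Fisher's exact test, and 1.7% of all tested genes were called (0.781% with a higher share in replicate 1 and 0.924% in replicate 2). Of the 7 factors tested, 0 were called. The leading model took 95.6% of such Nkx2-5 reads in replicate 1 and 98.2% in replicate 2, 100% and 100% for Hand2, and 61.1% and 52.0% for Gata6. It took 38.9% and 38.1% for Mef2a, 33.3% and 42.9% for Gata4 and 28.6% and 37.9% for Srf, and was 2 of 10 and 1 of 10 reads for Mef2d. No factor had an unadjusted p under 0.05 in this exact test. The factors thus ran between genes with 1 dominant transcript and genes such as Mef2d, whose spliced reads were spread over 16 models.

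Srf (chromosome 17, 46548329 to 46556175, minus strand) showed the plainest alternative exon. Exon 5 of Srf-201 codes for part of the transactivation region, and in mouse muscle forms of SRF without exon 5, or without exons 4 and 5, have been described. Its 192 bases (chr17:46549845-46550036) are a multiple of 3 and leave the reading frame intact when skipped. The exon is shown in capitals, with 15 bases of the neighbouring exons in lower case.
Srf exon 5: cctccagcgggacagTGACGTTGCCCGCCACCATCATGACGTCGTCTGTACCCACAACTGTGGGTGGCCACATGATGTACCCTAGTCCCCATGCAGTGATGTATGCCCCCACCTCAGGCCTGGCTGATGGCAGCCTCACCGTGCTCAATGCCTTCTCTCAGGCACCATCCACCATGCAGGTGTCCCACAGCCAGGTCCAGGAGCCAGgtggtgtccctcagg
Among reads with the junctions that show its fate, 15 of 23 in replicate 1 (65.2% [42.7 to 83.6]) and 14 of 28 in replicate 2 [30.6% to 69.4%] included exon 5. It was skipped alone in 8 of 23 and 13 of 28, and 0 and 1 reads skipped exons 4 and 5 together. The intervals of the 2 libraries overlap. Both forms were thus present in both libraries.

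The read structures of Srf go beyond the annotation. The full chain without exon 5 had 8 reads in replicate 1 and 11 in replicate 2 and is absent from the annotation, which holds the skipping junction only in the shorter transcript Srf-202. The full chain with exon 5, Srf-201, had 8 and 5. A model that starts at exon 3 and keeps exon 5 had 6 and 7, and those 7 reads of replicate 2 were placed on a model that ends 1489 bases beyond the annotated 3′ end. Srf-203, annotated as a retained intron, had 5 reads in replicate 1 and 0 in replicate 2. An unannotated single-exon locus on the Srf strand just beyond the gene had 1 and 6 reads.

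**Figure D4:**
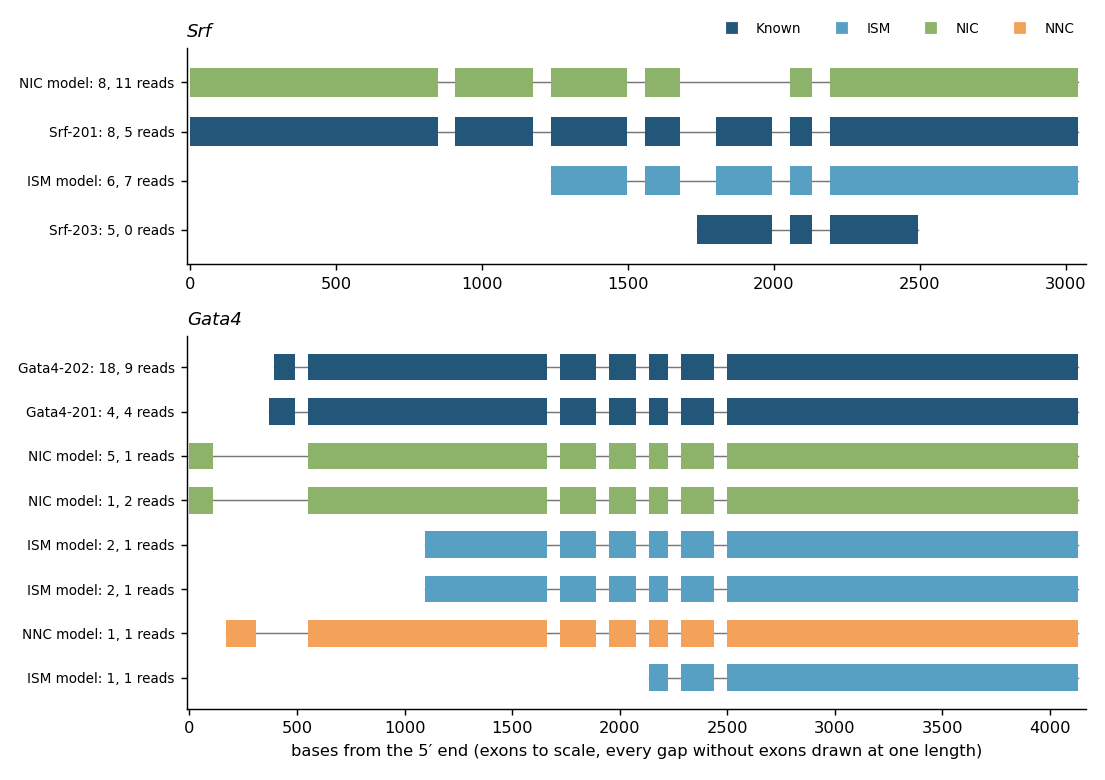
Models of Srf and Gata4 with 2 or more exons that had at least 5 reads over both libraries or occurred in both, drawn 5′ to 3′ with exons to scale in bases and each gap without exons at one length. Labels give the reads of replicate 1, then replicate 2, and colours give the class. The leading Srf model (8 and 11 reads) lacks exon 5, and the leading Gata4 model (18 and 9 reads) starts with the nearer first exon. The Srf ISM model is drawn with its replicate 1 ends.

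The 3 Mef2 genes share a layout of alternative exons. Behind the exons for the DNA-binding MADS and MEF2 domains each has a pair of alternative coding exons, of which a transcript normally takes a single member, and farther on a short exon for the acidic beta domain. The exons of a pair are named here by their order in the gene. In Mef2d (chromosome 3, 88142372 to 88172086, plus strand) the first has 138 bases (chr3:88158034-88158171) and the second 135 bases (chr3:88158221-88158355). They are shown because the reads combine the second with the beta exon in a way the annotation lacks. Capitals mark the alternative exon and lower case the 15 bases on either side.
Mef2d first exon of the pair: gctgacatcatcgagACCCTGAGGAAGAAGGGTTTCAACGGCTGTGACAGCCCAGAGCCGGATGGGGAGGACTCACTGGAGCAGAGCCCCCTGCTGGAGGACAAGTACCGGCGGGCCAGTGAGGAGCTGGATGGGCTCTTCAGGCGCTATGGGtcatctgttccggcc
Mef2d second exon of the pair: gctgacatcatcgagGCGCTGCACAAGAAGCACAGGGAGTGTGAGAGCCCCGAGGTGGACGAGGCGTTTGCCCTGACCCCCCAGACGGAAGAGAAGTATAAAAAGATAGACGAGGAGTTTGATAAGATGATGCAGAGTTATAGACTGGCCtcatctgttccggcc
The exons of the Mef2d pair were 51.4% identical over their alignment, and those of the Mef2c pair 63.2%. Between Mef2c and Mef2d the first exons were 63.9% identical and the second exons 65.2%.

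The beta exons have 24 bases in Mef2a (chr7:67244521-67244544) and Mef2c (chr13:83654598-83654621) and 21 bases in Mef2d (chr3:88161781-88161801). They are shown with the same marking, since reads of Mef2a and Mef2d included it and those of Mef2c did not.
Mef2a beta exon: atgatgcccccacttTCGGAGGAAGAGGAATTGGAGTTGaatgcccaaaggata
Mef2c beta exon: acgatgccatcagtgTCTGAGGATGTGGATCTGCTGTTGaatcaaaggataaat
Mef2d beta exon: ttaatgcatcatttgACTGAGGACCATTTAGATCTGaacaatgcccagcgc
Most reads that span the site included the exon in Mef2a, with 15 of 18 in replicate 1 (83.3% [58.6 to 96.4]) and 16 of 20 in replicate 2 [56.3% to 94.3%]. In Mef2d 7 of 10 (70.0% [34.8 to 93.3]) and 6 of 8 (75.0% [34.9 to 96.8]) did. In Mef2c 0 of 8 and 0 of 5 did, with exact upper bounds of 36.9% and 52.2%. Over both libraries the Mef2c upper bound was 24.7%, below the lower bounds of 65.7% in Mef2a and 46.5% in Mef2d. Within each library the Mef2c interval lay below that of Mef2a but overlapped that of Mef2d. The annotation has 8 Mef2c transcripts with the beta exon and 8 with the junction that skips it.

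In Mef2d the second exon was used in 8 of 9 reads in replicate 1 (88.9% [51.8 to 99.7]) and 3 of 8 in replicate 2 (37.5% [8.52 to 75.5]). The libraries thus pointed to different leading exons in Mef2d, with intervals that overlap. In Mef2c (chromosome 13, 83504034 to 83667080, plus strand) the second exon was used in 4 of 8 and 1 of 5.

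Reads that cover both sites show which exons lie on 1 molecule. In Mef2d the second exon with the beta exon was the most frequent combination over both libraries, with 6 and 3 reads, and is carried by 0 annotated transcripts. The first exon with the beta exon had 0 and 3 reads, the first exon without it 1 and 1, and the second exon without it 2 and 0.

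Mef2a (chromosome 7, 67231163 to 67372858, minus strand) was led by a NIC model of 12 exons with 7 reads in replicate 1 and 8 in replicate 2. Its most frequent annotated transcript, Mef2a-208, had 5 and 5, and 2 other annotated transcripts had 1 and 1 read each.

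**Figure D5:**
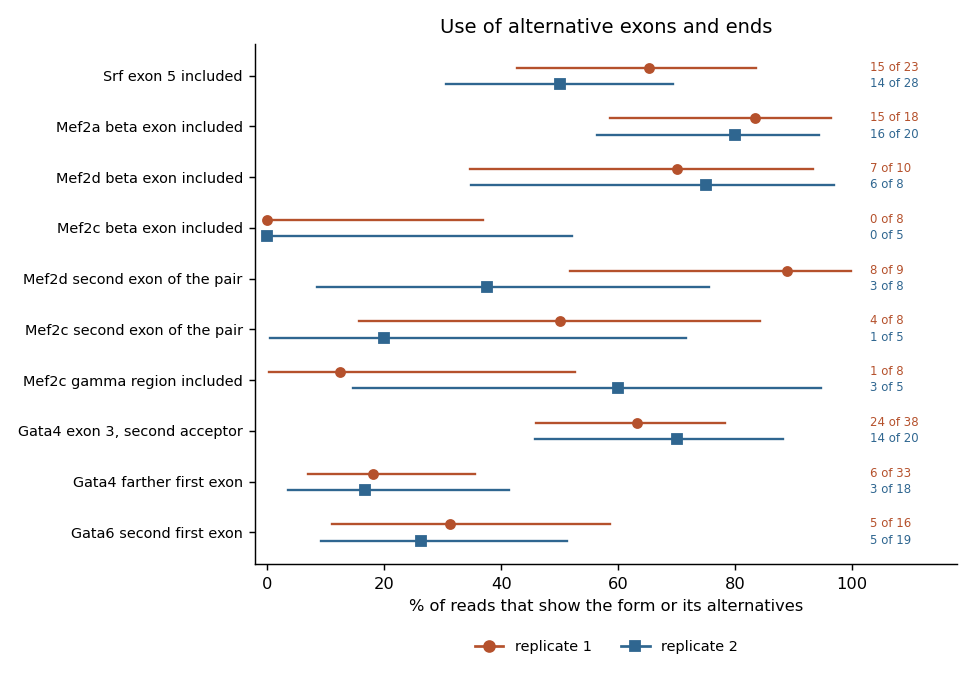
Percentage of reads that show the named form, among reads that show it or its alternatives, with exact 95% intervals that cover counting error only. Circles are replicate 1 and squares replicate 2, with the reads behind each value at the right. The Mef2c beta exon stands at 0 of 8 and 0 of 5, while those of Mef2a and Mef2d lie between 70.0% and 83.3%.

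Mef2c also has an optional stretch of 96 bases at the start of its last exon, the gamma region (chr13:83662307-83662402), which in studies of MEF2C holds a phosphorylated serine that lowers its activity. It was included in 1 of 8 reads in replicate 1 and 3 of 5 in replicate 2 and skipped in 6 of 8 and 2 of 5. A further acceptor was used in 1 and 0 reads. The most frequent combination over both libraries had the first exon of the pair, no beta exon and no gamma region, with 3 and 2 reads. Transcription from the first exon used by Mef2c-227 was read in 6 of 8 and 4 of 6 reads with an informative donor, and from that of Mef2c-212 in 2 of 8 and 2 of 6. No Mef2c model had more than 2 reads in a library. With so few reads the use of the pair, the gamma region and the first exons of Mef2c was not resolved.

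Gata4 (chromosome 14, 63198922 to 63271692, minus strand) varied at its first exon and at a tandem splice acceptor. Exon 3 can begin at either of 2 acceptors that lie 3 bases apart within the coding sequence (chr14:63204756-63204758), so the proteins differ by 1 codon's length. Capitals mark the 3 bases that are kept with the acceptor reached first.
Gata4 exon 3 tandem acceptor: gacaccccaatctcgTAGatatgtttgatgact
The shorter form, without the 3 bases, had 24 of 38 reads in replicate 1 (63.2% [46.0 to 78.2]) and 14 of 20 in replicate 2 (70.0% [45.7 to 88.1]). The annotated transcript with the shorter form and the nearer first exon (ENSMUST00000118022) led with 18 and 9 reads. The annotated transcript with the 3 bases and the nearer first exon had 4 and 4.

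The farther first exon of Gata4, annotated in a short transcript of 2 exons, was used in 6 of 33 reads in replicate 1 (18.2% [6.98 to 35.5]) and 3 of 18 in replicate 2 (16.7% [3.58 to 41.4]). The nearer one had 25 and 14. With the farther first exon 5 and 1 reads had the 3 bases and 1 and 2 lacked them, and with the nearer one 6 and 4 had them and 19 and 10 lacked them. Full-length chains from the farther first exon are carried by 0 annotated transcripts and appeared as NIC models in both libraries, with 5 and 1 reads and with 1 and 2. An NNC model with a new first exon between them had 1 read in each library. A new internal exon of 57 bases (63212637 to 63212693) also had 1 read in each library.

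Gata6 (chromosome 18, 11052064 to 11085635, plus strand) likewise used more than 1 first exon. The annotated full-length transcript (ENSMUST00000047762) had 11 reads in replicate 1 and 13 in replicate 2. Models that begin with the first exon of a short annotated transcript, farther into the gene, had 5 of 16 reads in replicate 1 (31.2% [11.02 to 58.7]) and 5 of 19 in replicate 2 (26.3% [9.15 to 51.2]) among reads that show the first exon. Their donor sites differed between the libraries. Of those reads, 3 in replicate 1 used the annotated donor (a NIC model) and 2 an unannotated donor, and the 5 in replicate 2 shared another unannotated donor. A model lacking the first exon had 1 and 6 reads.

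Tbx5 (chromosome 5, 119832668 to 119885219, plus strand) had few spliced reads, 4 in replicate 1 and 4 in replicate 2, and 3 of them in each library reached across the coding region. Its sole model found in both libraries was an 8-exon ISM model with 2 and 1 reads. The rest were NIC and NNC models of 1 read each, further ISM models and Genomic models, mainly near the 3′ end. Tbx20 (chromosome 9, 24718138 to 24774303, minus strand) had no spliced read. Its 2 reads in each library were single-exon Genomic models of 490 and 197 bases in the last exon after the stop codon. Unannotated loci on the strand opposite to Tbx20 had 9 and 8 reads, more than the gene itself. Across the 10 genes such opposite-strand loci had 27 reads in replicate 1 and 22 in replicate 2, in 18 and 13 loci, none of them spliced. Strand assignment of unspliced reads was not checked.

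In all, 110 distinct models of the 10 genes were found, 30 of them in both libraries, and these 30 held 196 of 281 reads in replicate 1 and 179 of 247 in replicate 2. Of 16 annotated transcripts seen, 11 were in both libraries, and of 66 new spliced models 15 were. Junctions were shared more often than whole models. Of 79 annotated introns crossed, 75 were in both libraries, whereas 4 of 34 introns absent from the annotation were. The unannotated introns took 2.98% of all intron crossings in replicate 1 and 2.46% in replicate 2. The 4 shared ones border the new internal or first exon of Gata4 and a new Mef2d exon of 150 bases (chr3:88143350-88143499). The intron before this Mef2d exon was crossed by 1 read in each library, and the intron after it by 4 reads in replicate 1 and 2 in replicate 2.

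Proteins that work with these factors were read from a list of 25 symbols, of which 12 were tested. In this list 1 gene was higher in replicate 1 and 2 in replicate 2, with a median log2 ratio of -0.10. Over all tested genes 0.861% and 1.21% were called. Csrp3, the muscle LIM protein of the sarcomere's Z-disc, stood at 1968 and 1826 CPM (adjusted p of 0.554, exact binomial test). Fhl2, a LIM-only cofactor that binds SRF, was higher in replicate 1, with 1043 CPM against 794 CPM in replicate 2 (1.31-fold, adjusted p of 0.000295, exact binomial test). Hopx, a homeodomain protein without DNA binding that restrains SRF, was lower in replicate 1, with 303 CPM against 447 CPM in replicate 2. Ankrd1, a cardiac ankyrin repeat protein, was lower as well, with 224 CPM against 365 CPM. Myocd, the SRF coactivator myocardin, had 6 and 7 reads (9.66 and 10.4 CPM).

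Other heart transcription factors numbered 29, of which 23 had reads and 14 were tested. Among these 2 were higher in replicate 1 and 2 in replicate 2, with a median log2 ratio of 0.25. The shares called over all tested genes were 0.861% and 1.21%. Hopx is in both lists and is counted in both. Esrra, an estrogen-related receptor that drives mitochondrial genes, stood at 2470 and 2016 CPM and was higher in replicate 1 (adjusted p of 5.92e-06, exact binomial test). Klf15 was lower in replicate 1, with 48.3 CPM against 145 CPM. Ppara, the nuclear receptor of fatty acid oxidation, had 11 reads in replicate 1 and 0 in replicate 2 and was called (adjusted p of 0.0192, exact binomial test). Irx3, an Iroquois factor of the conduction system, had 25.7 and 22.3 CPM. Isl1, Hey2, Foxh1, Nkx2-3, Nkx2-6 and Mesp1, mainly factors of the embryo, had no reads in either library.

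Of 30 textbook target genes of these factors 27 were tested, 9 higher in replicate 1 and 2 in replicate 2, with a median log2 ratio of 0.15. Over all tested genes 0.861% and 1.21% were called. Pln (15286 and 14425 CPM), Myh6 (14534 and 12896 CPM), Tnnc1 (10624 and 9046 CPM) and Mb (7668 and 6913 CPM) led the targets, and all 4 were higher in replicate 1, as were Myl2, Myl3 and Atp2a2, each by less than 1.2-fold. At such read counts a small ratio is enough for a call, as for Pln with 9499 and 9718 reads (1.06-fold). The number of calls was not set against genes of like read counts. Myh7, the beta myosin heavy chain, stood at 206 and 68.3 CPM, 3.02-fold higher in replicate 1. Nppb, the B-type natriuretic peptide, stood at 167 and 47.5 CPM, 3.52-fold higher in replicate 1. Nppa and Myl7, both atrial genes, were lower in replicate 1. Nppa had 938 CPM in replicate 1, against 2084 CPM in replicate 2, and Myl7 had 274 CPM, against 640 CPM. Of the long non-coding neighbours, Hand2os1, transcribed away from Hand2 on the opposite strand, had 56 reads (90.1 CPM) in replicate 1 and 73 reads (108 CPM) in replicate 2, with 54 and 70 of them spliced, and so exceeded Hand2 in reads in both libraries. Mhrt, antisense to Myh7, had 90.1 and 87.6 CPM. Neither was called.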

How the data were processed

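RNA of 2 heart libraries was read as long reads. Per the file headers, the deposited tables are raw read counts for each transcript model with its gene, class, exon number and length, and the deposited models give each exon's position. They name TALON as source and mm10 with GENCODE M21, per the labels and the files. The aligner, program versions and filters were not given in the sources used here. Rows at 0 reads are not listed.

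Models were read by gene name. Known models were matched between libraries by identifier, new spliced models by their introns and new single-exon models by exact ends, except that the test of leading shares took the single-exon models of a class together. Library sizes were scaled by TMM factors from genes with at least 10 reads (edgeR 4.0.16, R 4.3.3), and DESeq2 1.42.0 gave alternative size factors. Genes were compared by exact binomial and Fisher's exact tests, adjusted by the Benjamini-Hochberg method over all tested genes and called at 0.05. Intervals are exact Clopper-Pearson 95% intervals and cover counting error only. The tests were tested on simulated data. An exon form was counted from reads whose model holds its junctions, and the sequences come from the GENCODE M21 transcripts. Matplotlib 3.10.9, pandas 2.3.3, scipy 1.17.1 and numpy 2.4.6 ran under Python 3.11.15.

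The members and gene lists were chosen with earlier results of these data known. The exon forms were chosen after seeing the models. Named genes are the 10 factors, the up to 4 most abundant and all called genes of each list, called markers and markers without reads, and models with at least 5 reads or in both libraries. Mkl1, Mkl2, Baf60c and Cyr61 and the listed names Gata6os, Tbx5os, Mef2c-as and Nkx2-5os are not symbols of this annotation. Myocd was named after its values were seen. A few results on Mef2a are not reported here.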

Additional observations from a re-analysis of the deposited data

How the results depend on the processing

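Of 63 recomputed library differences of single factors, 60 stayed on their side of the threshold. Gata4 alone was called with all reads, so for the other factors staying means only that no call appeared. Leaving out the Genomic class and keeping the other classes of annotated genes gave the same reads per factor but count as separate settings. The 3 that did not stay are the lost calls of Gata4 given above. Its ratio stayed above 1, the smallest log2 ratio being 0.84 with known transcripts only against 1.13 with all reads. The number of genes called over the whole table was 156 with all reads and 102 with reads of known transcripts only, and ran between 114 and 216 under the other settings. Total reads as library sizes gave 51 genes higher in replicate 1 and 106 in replicate 2, against 65 and 91 with TMM factors. Calls of leading transcript share numbered 72, and 0 with known transcripts only in Fisher's exact test, where 54 genes had an unadjusted p under 0.05. The Known share of the factors' reads was 49.0%, ran between 48.2% and 49.8% when a library was left out, and was 33.3% as the mean of the factors' own shares. The cause was not tested. Mean levels moved by more than the spread between libraries in 13 of 50 cases, 9 of them with known transcripts only, which include those of Mef2d, Mef2a and Srf given above and Mef2c (3.56 CPM, against 14.0 CPM with all reads). The 50 cases include levels from a single library. By construction these lie within the SD of the 2 libraries and could not count as moved. Leaving out a library gave no value for the tests between libraries. No paired analysis was possible because the study has 1 group. Depth limits the values of 3 factors with fewer than 20 reads over both libraries.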
